A study of Mus musculus with 6 samples.

Results

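The 10 genes described here encode transcription factors of effector and tumour regulatory T cells: Batf, Irf4, Prdm1, Maf, Bhlhe40, Id2, Nfil3, Ikzf5, Zeb2 and Hif1a. They were chosen by gene symbol, and each matched 1 of the 54446 Ensembl genes counted in every library. Regulatory T cells (Treg cells) are a CD4 lineage defined by Foxp3, and they hold immune responses in check. The 6 libraries hold total RNA of Treg cells, gated as live, CD45+, CD4+ and Foxp3-GFP+, from subcutaneous tumours of the mouse melanoma line B16F10. The 3 libraries labelled Ythdf2 cKO have the genotype Foxp3CreYthdf2fl/fl, in which a Cre recombinase driven by Foxp3 acts on 2 floxed alleles of Ythdf2. The 3 control libraries are labelled WT Control but have the genotype Foxp3CreYthdf2fl/+, so they share the Cre and carry 1 floxed allele. The labels place Ythdf2 cKO replicates 2 and 3 and control replicate 3 in cage 2, and Ythdf2 cKO replicate 1 and control replicates 1 and 2 in cage 1. Age, sex and the number of animals behind each library are not in the labels, so each p-value speaks only of variation among these samples, some of which may be technical.

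When a Treg cell is activated or enters tissue, it leaves the resting programme and takes on an effector one, and in mouse this step depends on factors of this group. BATF pairs with JUN proteins and binds DNA together with IRF4, and this complex opens sites in effector T cell genes. PRDM1 (Blimp-1) and MAF act further on, PRDM1 largely as a repressor and MAF as an activator of the gene for interleukin-10. BHLHE40 and NFIL3 are repressors induced by activation, ID2 blocks DNA binding by E proteins, and HIF1A is the oxygen-regulated part of the hypoxia factor HIF-1. ZEB2 is a zinc finger repressor that is found in effector lymphocytes and also in myeloid cells and in the melanocyte lineage, and IKZF5 (Pegasus) is a member of the Ikaros family. YTHDF2, the targeted protein, binds mRNAs that carry N6-methyladenosine (m6A) and promotes their decay.

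The genes are spread over 7 chromosomes of mm10, as GENCODE M21 places them. Chromosome 12 holds Batf (ENSMUSG00000034266) at chr12:85686669-85709087 on the plus strand, Id2 (ENSMUSG00000020644) at chr12:25093799-25097140 on the minus strand and Hif1a (ENSMUSG00000021109) at chr12:73901375-73947530 on the plus strand. Chromosome 13 holds Irf4 (ENSMUSG00000021356) at chr13:30749226-30766976 on the plus strand and Nfil3 (ENSMUSG00000056749) at chr13:52967209-52981073 on the minus strand. The others are Prdm1 (ENSMUSG00000038151) at chr10:44437177-44528501 on the minus strand, Maf (ENSMUSG00000055435) at chr8:115682942-115707794 on the minus strand and Bhlhe40 (ENSMUSG00000030103) at chr6:108660629-108666925 on the plus strand. Last come Ikzf5 (ENSMUSG00000040167) at chr7:131388652-131410521 on the minus strand and Zeb2 (ENSMUSG00000026872) at chr2:44983632-45117395 on the minus strand. Reads were counted over the exons of each gene.

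The gene counts ran from 5602053 to 13602069 per library. Control replicate 3 stood apart: mitochondrial ribosomal RNA took 42.6% of its gene counts and from 9.97% to 19.2% in the other libraries. Ythdf2 itself had a log2 fold change of -0.10 (standard error 0.16) between the libraries labelled Ythdf2 cKO and control, so its counts over all exons did not separate the labels, and directions below are for the libraries as labelled. All 9 markers of T cells and Treg cells were read in all libraries. They were led by Ctla4 and by Ptprc, the CD45 gene, which is not particular to T cells. Their summed level was 4674 to 6403 CPM (counts scaled to a common library size with TMM factors) in cage 2, against 7706 to 8538 CPM in cage 1. By genotype the same sum was 5274 to 8538 CPM in libraries labelled Ythdf2 cKO and 4674 to 8361 CPM in the controls. The 14 melanoma markers, all read at least once and led by Dct and Tyrp1, summed to 2950 to 5963 CPM in cage 2 and 63.2 to 623 CPM in cage 1. The 16 macrophage and monocyte markers, led by Apoe and Lyz2, summed to 156 to 596 CPM in cage 2 and 11.96 to 108 CPM in cage 1. In Ythdf2 cKO replicate 2 of cage 2, Apoe gave 137 of the 156 CPM and Lyz2 6.56 CPM. In control replicate 2 of cage 1, Apoe gave 49.5 of the 108 CPM and Lyz2 20.2 CPM. The cages were thus separated in this sum only with Apoe counted. By genotype none of the 13 macrophage and monocyte markers tested passed. All 13 had a log2 fold change below 0 (median -1.20), where 6681 of all 13172 genes tested did. Their sum was highest in control replicate 3 (596 CPM) and lowest in Ythdf2 cKO replicate 1 (11.96 CPM), and these markers are not independent of one another. In bulk RNA, fewer cells of a type and less RNA per cell cannot be told apart. Dendritic cell markers summed to 17.7 to 44.1 CPM, B and plasma cell markers to 5.48 to 19.3 CPM, and CD8 T and NK cell markers to 17.8 to 33.6 CPM over the 6 libraries, with Klrb1c at 0. Stromal and endothelial markers, led by Pecam1 and Col3a1, summed to 330.2 CPM in Ythdf2 cKO replicate 3 and to 60.9 to 114 CPM in the other 5 libraries.

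Per kilobase of exon, Bhlhe40 and Hif1a were the highest of the 10 genes. Bhlhe40 had a level of 216 ± 43.7 and Hif1a one of 210.5 ± 35.8 CPM per kilobase (SD over the 6 libraries), which put both at percentile 99.1 among the 13172 genes tested. Next came Id2 at 76.9 ± 15.5, Nfil3 at 54.4 ± 14.7, Batf at 46.5 ± 18.8 and Maf at 45.9 ± 9.23 CPM per kilobase. Irf4 was at 33.2 ± 12.1 and Prdm1 at 26.5 ± 5.78 CPM per kilobase. Zeb2 at 5.04 ± 2.87 and Ikzf5 at 4.29 ± 0.590 CPM per kilobase lay near the middle of all genes, at percentiles 52.8 and 48.6. The neighbours Bhlhe40 and Hif1a, Nfil3 and Batf, Batf and Maf, Irf4 and Prdm1, and Zeb2 and Ikzf5 differed by less than the larger SD of the pair. Zeb2 varied the most between libraries, 4.37-fold from the lowest to the highest, then Batf (2.93-fold) and Irf4 (2.55-fold), while Ikzf5 varied least (1.44-fold). The strand setting of the counting is not given in the sources used here. For Ikzf5 that matters most, because 4835 exonic bases, of 5721 in the gene, are shared with other genes, mostly with Pstk on the opposite strand. The bases shared with other genes were 662 for Zeb2, 478 for Hif1a, 440 for Maf, 118 for Bhlhe40 and 0 for the other 5.

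Promoter windows show what regulatory letters the members hold near their starts. RefSeq windows of 300 bases (GRCm38.p6, the build of mm10) were matched for 8 of the 10 genes, 11 windows in all. They were searched on both strands for the AP-1 motif TGACTCA, the E-box CACGTG, the hypoxia core ACGTG (which lies inside CACGTG), an NF-kB form (GGG and TTTCC 2 bases apart) and an interferon-response form (GAAA and GAAA 2 bases apart). Of all 32851 windows 5.2% held TGACTCA, 7.15% CACGTG, 19.6% ACGTG, 1.63% the NF-kB form and 3.44% the interferon-response form. Among the members TGACTCA was found in Zeb2, and CACGTG and ACGTG in Hif1a, and the windows of the other 6 genes held none of these letters. The windows shown are those that hold matches, with the matches in capitals. The Zeb2 window, on the minus strand at chr2:45110228-45110527, is 1 of 4 annotated starts and has TGACTCA or its reverse complement at -189 and -132 from the start. The windows of the other Zeb2 starts held none of these letters, so TGACTCA was in 1 of the 11 windows of the members. The Hif1a window, on the plus strand at chr12:73907617-73907916, has CACGTG at -135 and a further ACGTG at -70.
Zeb2: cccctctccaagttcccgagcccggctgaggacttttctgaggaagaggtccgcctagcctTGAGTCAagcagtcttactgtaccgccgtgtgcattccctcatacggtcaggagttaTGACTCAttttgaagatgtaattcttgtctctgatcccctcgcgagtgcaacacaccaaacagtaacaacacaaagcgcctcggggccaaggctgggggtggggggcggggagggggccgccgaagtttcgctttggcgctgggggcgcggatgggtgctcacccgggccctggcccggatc
Hif1a: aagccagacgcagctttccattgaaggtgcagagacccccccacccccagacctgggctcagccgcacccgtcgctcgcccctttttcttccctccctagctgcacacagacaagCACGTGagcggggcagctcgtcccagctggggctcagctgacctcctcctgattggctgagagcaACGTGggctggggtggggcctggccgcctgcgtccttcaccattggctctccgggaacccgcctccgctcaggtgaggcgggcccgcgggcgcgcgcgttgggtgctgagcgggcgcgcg

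The transcripts themselves were searched for GGACT, a common form of the m6A consensus. In the longest protein-coding transcript of each gene the members held from 1 copy (Ikzf5) to 10 copies (Maf). Per kilobase, Batf had 4.19 copies, at percentile 99.8 of 11404 genes, and Id2 had 2.03, at percentile 89.8. Ikzf5 was the lowest at 0.226 per kilobase, percentile 7.90. The median of the 10 was 1.45 per kilobase, against 1.04 over all these genes, and 6 of the 10 lay above that value. A copy of the letters is not a measured m6A site, and m6A was not measured in these libraries.

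The genotype comparison sets the libraries labelled Ythdf2 cKO against the controls to ask how a Treg deletion of Ythdf2 bears on gene expression, although Ythdf2 itself was at 90.1, 104 and 104 CPM in Ythdf2 cKO replicates 1, 2 and 3, against 124, 102 and 93.1 CPM in control replicates 1, 2 and 3. None of the 10 genes passed the test between the libraries labelled Ythdf2 cKO and control, and the per-library values of the groups overlapped for all 10. Of all 13172 genes tested, 0% passed (adjusted p under 0.05 in the quasi-likelihood test of edgeR, 0 of 13172, with 213 at an unadjusted p under 0.05; DESeq2 and limma-voom also called 0, with 279 and 239 at that level), and 7.62% had groups that did not overlap. The log2 fold changes of the members ran from -0.30 for Nfil3 to 0.31 for Prdm1, with 5 above 0 and 5 below and a median of 0.034, against -0.0049 over all genes tested. With cage as a term 0 members passed as well.

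**Figure D1:**
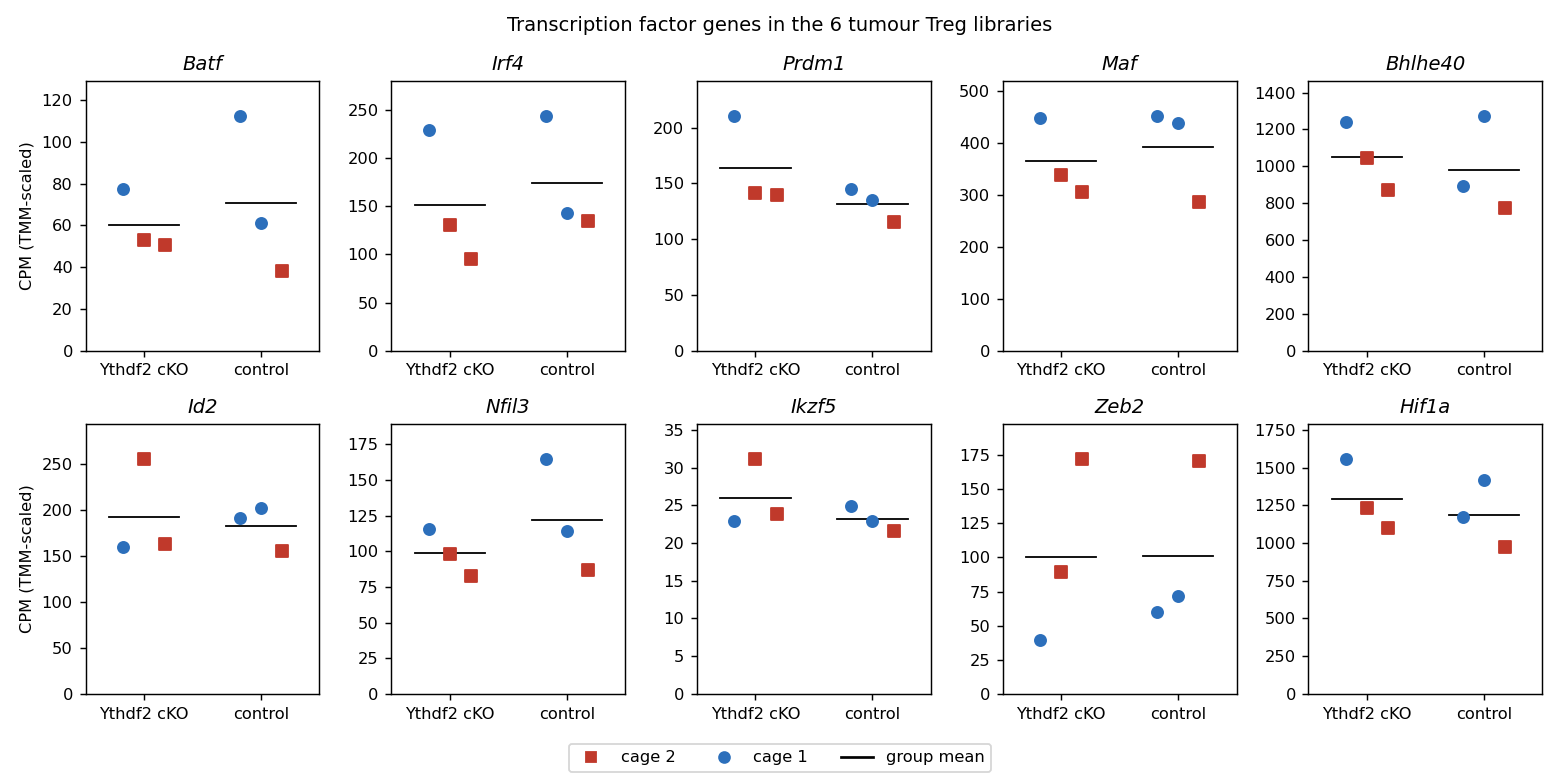
Level of each of the 10 genes in CPM (vertical axes, from 0) in the libraries labelled Ythdf2 cKO (left) and control (right), with squares for cage 2, circles for cage 1 and a line at each group mean. The genotypes overlap in every panel, while Zeb2 is at 89.0 CPM or more in cage 2 and at 71.9 CPM or less in cage 1.

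BATF and IRF4 form the core of the effector complex. Batf stood at 77.6, 52.8 and 50.5 CPM in Ythdf2 cKO replicates 1, 2 and 3, against 112, 61.2 and 38.3 CPM in control replicates 1, 2 and 3. The Ythdf2 cKO values lay inside the range of the controls. Its log2 fold change was -0.23 (standard error 0.38, 95% interval from -1.13 to 0.67, edgeR adjusted p = 1.00). Irf4 was at 229, 130.3 and 95.6 CPM in Ythdf2 cKO replicates 1, 2 and 3 and at 243, 143 and 135 CPM in control replicates 1, 2 and 3. Its highest values were the first replicate of each group, and the log2 fold change was -0.20 (standard error 0.36, interval from -1.05 to 0.65, edgeR adjusted p = 1.00). A change of 1.5-fold in either gene would lie inside these intervals.

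Prdm1 and Maf belong to the later effector step. Prdm1 had the smallest p of the 10 in the genotype comparison. Its level was 210.3, 141 and 139.8 CPM in Ythdf2 cKO replicates 1, 2 and 3, against 145, 135 and 116 CPM in control replicates 1, 2 and 3. Ythdf2 cKO replicate 1 was the highest library, and the others lay between 116 and 145 CPM. The log2 fold change was 0.31 (standard error 0.20, unadjusted p = 0.17, edgeR adjusted p = 1.00). Within each cage every library labelled Ythdf2 cKO lay above every control, by 0.59 on the log2 scale in cage 1 and 0.28 in cage 2. Each cage sets only 1 library against 2, and the share of all genes with this order was not counted. With cage as a term the log2 fold change was 0.43 (standard error 0.13, interval from 0.14 to 0.72), with an unadjusted p of 0.0079 and an edgeR adjusted p of 0.45, in a fit where 1345 of 13172 genes reached an unadjusted p below 0.05. Without Ythdf2 cKO replicate 1 and with genotype as the only term the value was 0.083. Maf was at 448, 339 and 306 CPM in Ythdf2 cKO replicates 1, 2 and 3 and at 452, 439 and 287 CPM in control replicates 1, 2 and 3, a log2 fold change of -0.11 (standard error 0.23, edgeR adjusted p = 1.00).

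Among the repressors of activated T cells, Bhlhe40 stood at 1241, 1043 and 869 CPM in Ythdf2 cKO replicates 1, 2 and 3, against 896, 1272 and 774 CPM in control replicates 1, 2 and 3. The log2 fold change was 0.10 (standard error 0.24, interval from -0.46 to 0.66, edgeR adjusted p = 1.00). Nfil3, also a regulator of circadian genes, was at 116, 97.8 and 82.4 CPM in Ythdf2 cKO replicates 1, 2 and 3 and at 164, 114 and 86.6 CPM in control replicates 1, 2 and 3. That is a log2 fold change of -0.30 (standard error 0.25, interval from -0.90 to 0.29, edgeR adjusted p = 1.00), the lowest of the 10. The fold change moved to -0.031 without control replicate 1, the library with the highest Nfil3 level.

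For Id2, the inhibitor of E proteins, Ythdf2 cKO replicate 2 was the highest library. Its level was 159, 255 and 163 CPM in Ythdf2 cKO replicates 1, 2 and 3, against 191, 202 and 155 CPM in control replicates 1, 2 and 3. The log2 fold change was 0.074 (standard error 0.22, edgeR adjusted p = 1.00), and it was -0.19 without that library. Ikzf5 had a like outline at a lower level, 22.9, 31.1 and 23.9 CPM in Ythdf2 cKO replicates 1, 2 and 3 and 24.9, 22.9 and 21.6 CPM in control replicates 1, 2 and 3. Its log2 fold change was 0.17 (standard error 0.22, edgeR adjusted p = 1.00).

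Zeb2 had the least certain genotype value of the 10. It was at 39.3, 89.0 and 171.8 CPM in Ythdf2 cKO replicates 1, 2 and 3, against 60.1, 71.9 and 170.6 CPM in control replicates 1, 2 and 3. Each group held 1 library above 170 CPM, both from cage 2, and the lowest library was Ythdf2 cKO replicate 1. The log2 fold change was -0.0055 (standard error 0.57, interval from -1.35 to 1.33, edgeR adjusted p = 1.00). With cage as a term it was -0.56 (standard error 0.25, edgeR adjusted p = 0.50), from -0.75 within cage 1 and -0.39 within cage 2. Hif1a was at 1554, 1232 and 1097 CPM in Ythdf2 cKO replicates 1, 2 and 3 and at 1173, 1414 and 977 CPM in control replicates 1, 2 and 3. Within each cage every library labelled Ythdf2 cKO had more Hif1a than every control, by 0.26 and 0.25 on the log2 scale in cages 1 and 2. Here too each cage sets only 1 library against 2, and the share of all genes with this order was not counted. Its log2 fold change was 0.12 (standard error 0.22, edgeR adjusted p = 1.00) and 0.26 with cage as a term (standard error 0.13, edgeR adjusted p = 0.51).

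**Figure D2:**
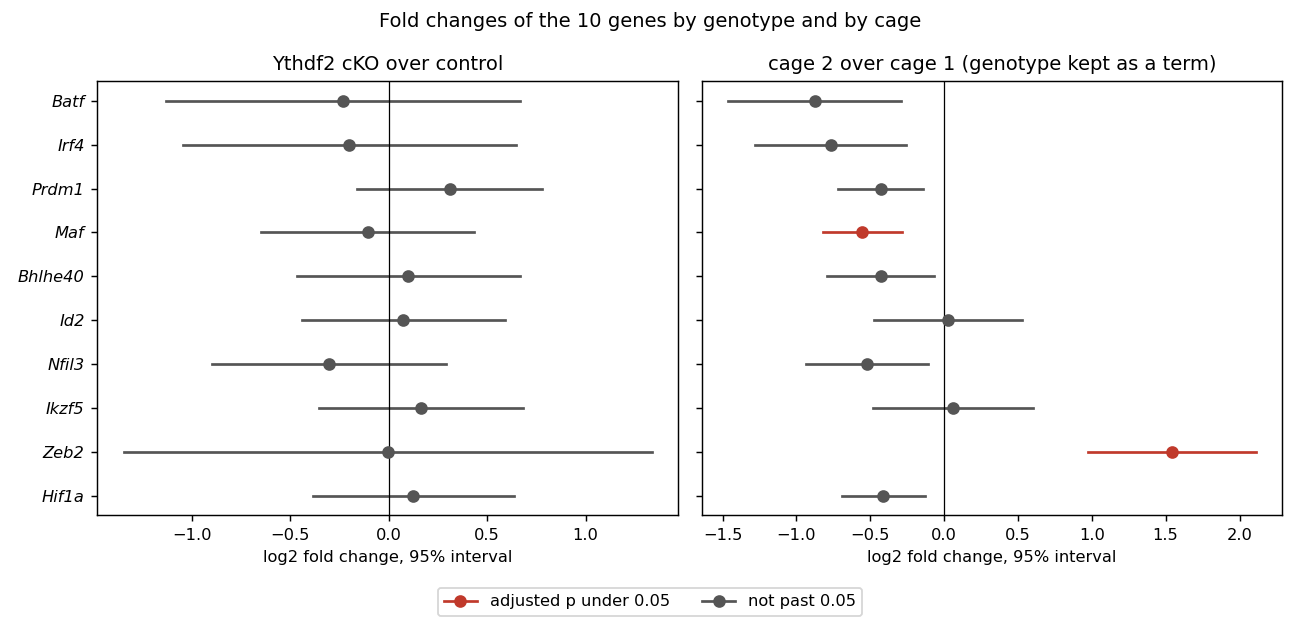
Log2 fold change of each gene with its 95% interval (horizontal axes) for Ythdf2 cKO over control (left) and cage 2 over cage 1 with genotype kept as a term (right), red where the edgeR adjusted p is under 0.05. All 10 intervals on the left include 0, and Zeb2 and Maf are red on the right.

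Between the cages Zeb2 and Maf passed the test. Each cage holds both genotypes, so cage 2 was tested against cage 1 with genotype as a term, and cage may stand for other differences that the labels do not give. Zeb2 rose and Maf fell in cage 2, the other 8 did not pass, and over all genes 11.5% passed, 7.83% higher and 3.68% lower (edgeR adjusted p under 0.05). A count of 2 of 10 is thus near the background. An unadjusted p under 0.05 was reached by 8 of the 10, against 26.5% of all genes. In cage 2, 7 of the 10 had a log2 fold change below 0, against 49.2% of all genes. The median was -0.43 for the members and 0.013 for all genes. Scaled to the T cell and Treg markers, these medians were 0.23 (2 of 10 members below 0) and 0.68. A new scaling shifts the log2 fold changes of all genes by nearly the same amount. The place of the members below all genes was thus fixed in advance and is no further support, and the change of sign went with that shift. With total counts as the scaling 9 of 10 were below 0, and the median of all genes moved to -0.32. Without control replicate 3, the library with the high share of mitochondrial ribosomal RNA, 1 member passed and 7 of 10 were below 0. The cages did not overlap for 5 of the 10 genes, where 27.3% of all genes had cages that did not overlap. The interaction of genotype and cage passed for 0 of the 10 (edgeR adjusted p at least 0.40, with 0.0456% of all genes passing), but cage 1 holds 1 library labelled Ythdf2 cKO and cage 2 holds 1 control, and with 2 residual degrees of freedom this does not show that the genotype difference was alike in the cages.

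Zeb2 was higher in each library of cage 2 than in each of cage 1, at 89.0, 171.8 and 170.6 CPM in Ythdf2 cKO replicates 2 and 3 and control replicate 3, against 39.3, 60.1 and 71.9 CPM in Ythdf2 cKO replicate 1 and control replicates 1 and 2. The means were 144 ± 47.5 CPM in cage 2 and 57.1 ± 16.5 CPM in cage 1 (SD, n = 3 each). That is a log2 fold change of 1.54 (standard error 0.25, interval from 0.97 to 2.11, edgeR adjusted p = 0.0058). It was 1.73 within the libraries labelled Ythdf2 cKO and 1.37 within the controls. With the libraries scaled to the T cell and Treg markers the value was 2.23 (edgeR adjusted p = 6.4e-04) and with total counts 1.20 (edgeR adjusted p = 0.038). The call ended without Ythdf2 cKO replicate 1, the library lowest in Zeb2 (1.36, edgeR adjusted p = 0.061). The melanoma and macrophage markers moved with it: of 14 melanoma markers all 14 passed as higher in cage 2 (median 4.32 on the log2 scale). Of 13 macrophage and monocyte markers tested 7 passed as higher, where 7.83% of all genes did. In Ythdf2 cKO replicate 2 of cage 2 the macrophage sum was mostly Apoe. The part of the melanoma and macrophage markers in the Zeb2 result was not tested.

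Maf was the most even of the genes within each cage. It stood at 339, 306 and 287 CPM in Ythdf2 cKO replicates 2 and 3 and control replicate 3, against 448, 452 and 439 CPM in Ythdf2 cKO replicate 1 and control replicates 1 and 2. The means were 311 ± 26.1 CPM in cage 2 and 446 ± 6.86 CPM in cage 1 (SD, n = 3 each), and no library of one cage reached into the other. The log2 fold change was -0.55 (standard error 0.12, edgeR adjusted p = 0.019). Foxp3 and Cd4, the genes of the sort, had log2 fold changes of -0.65 and -0.57 between the same cages. The 9 T cell and Treg markers had a median of -0.64 with 6 passing as lower, where 3.68% of all genes did. Scaled to those markers, Maf was at 0.11 (edgeR adjusted p = 0.55), where the median of all genes was 0.68. The call also ended when control replicate 2 or 3, or Ythdf2 cKO replicate 1 or 3, was left out, with adjusted p from 0.061 to 0.098 and log2 fold changes from -0.64 to -0.46.

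Batf and Irf4 had the largest differences below 0 without passing. Batf averaged 47.2 ± 7.75 CPM in cage 2 and 83.7 ± 26.1 CPM in cage 1 (SD, n = 3 each), a log2 fold change of -0.88 (standard error 0.26, interval from -1.46 to -0.29, edgeR adjusted p = 0.061). Irf4 averaged 120.3 ± 21.5 CPM in cage 2 and 205 ± 54.3 CPM in cage 1, a log2 fold change of -0.77 (standard error 0.23, edgeR adjusted p = 0.060). In both genes the cages did not overlap, though the lowest library of cage 1, control replicate 2, stood close to cage 2. Scaled to the T cell and Treg markers they were at -0.20 and -0.10, where the median of all genes was 0.68.

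Nfil3, Bhlhe40, Prdm1 and Hif1a were also below 0 by cage without passing. Nfil3 averaged 88.9 ± 7.92 CPM in cage 2 and 131 ± 28.6 CPM in cage 1 (log2 fold change -0.52, standard error 0.18, edgeR adjusted p = 0.11). For Prdm1 the means were 132 ± 14.2 CPM in cage 2 and 163.5 ± 40.8 CPM in cage 1 (-0.43, standard error 0.13, edgeR adjusted p = 0.063). Bhlhe40 averaged 895 ± 136 CPM in cage 2 and 1136 ± 209 CPM in cage 1 (-0.43, standard error 0.16, edgeR adjusted p = 0.12), and Hif1a 1102 ± 128 CPM in cage 2 and 1380 ± 193 CPM in cage 1 (-0.41, standard error 0.13, edgeR adjusted p = 0.068). Their values under the scaling to T cell and Treg markers were 0.15, 0.24, 0.23 and 0.25 for Nfil3, Prdm1, Bhlhe40 and Hif1a, none past the threshold. The median of all genes was 0.68 under that scaling. At a threshold of 0.1 in place of 0.05, 6 of the 10 genes pass, where 17.4% of all genes do: Zeb2 as higher, and Maf, Batf, Irf4, Prdm1 and Hif1a as lower, where 6.76% of all genes are lower.

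Id2 and Ikzf5 had log2 fold changes near 0 between the cages, with wide errors. Id2 averaged 191 ± 55.4 CPM in cage 2 and 184 ± 22.03 CPM in cage 1 (log2 fold change 0.026, standard error 0.22), and Ikzf5 averaged 25.5 ± 4.94 CPM in cage 2 and 23.6 ± 1.14 CPM in cage 1 (0.058, standard error 0.24). Relative to the T cell and Treg markers they passed as higher in cage 2, at 0.68 for Id2 and 0.72 for Ikzf5 (edgeR adjusted p = 0.019 and 0.042), where the median of all genes was 0.68.

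**Figure D3:**
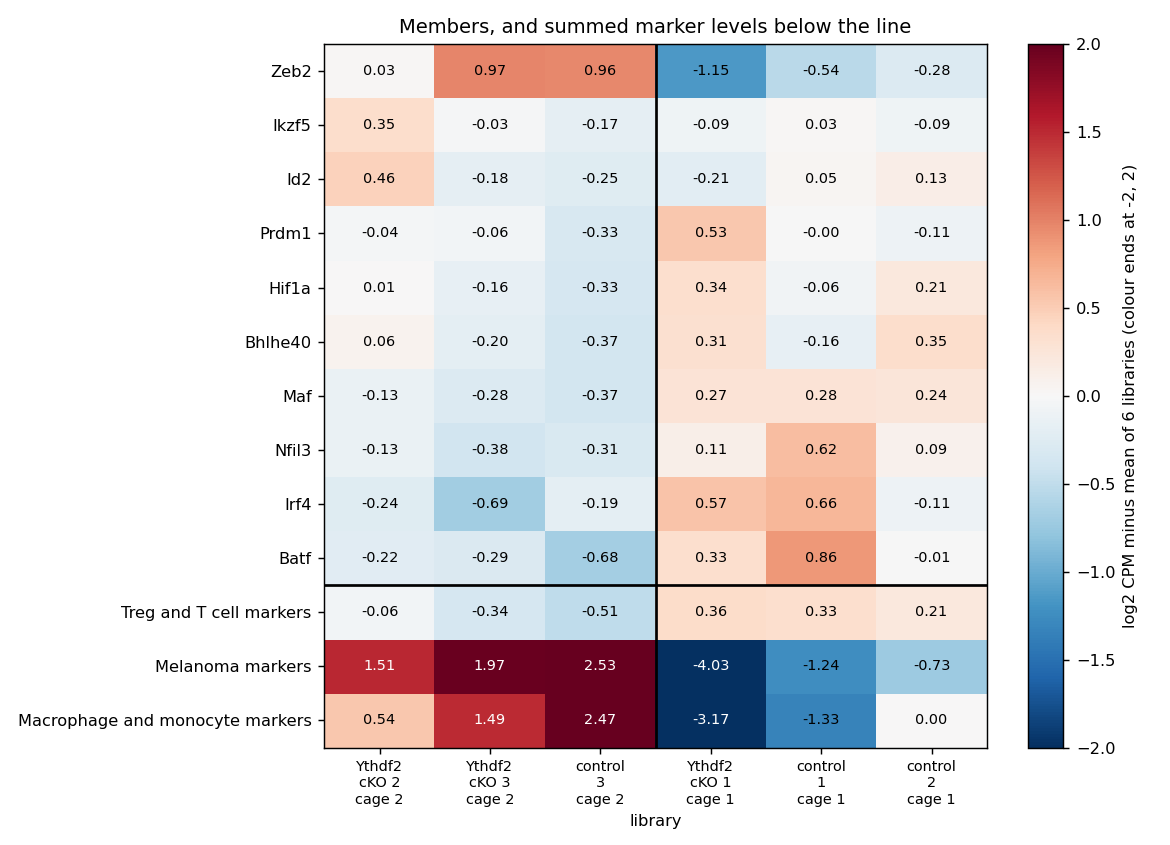
Log2 CPM of each gene minus its mean over the 6 libraries, and below the line the same for summed markers; columns are libraries, cage 2 left and cage 1 right, and colours end at -2 and 2. Maf ranges from -0.37 to -0.13 in cage 2 and from 0.24 to 0.28 in cage 1, and the T cell and Treg markers from -0.51 to -0.06 in cage 2 and from 0.21 to 0.36 in cage 1.

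**Figure D4:**
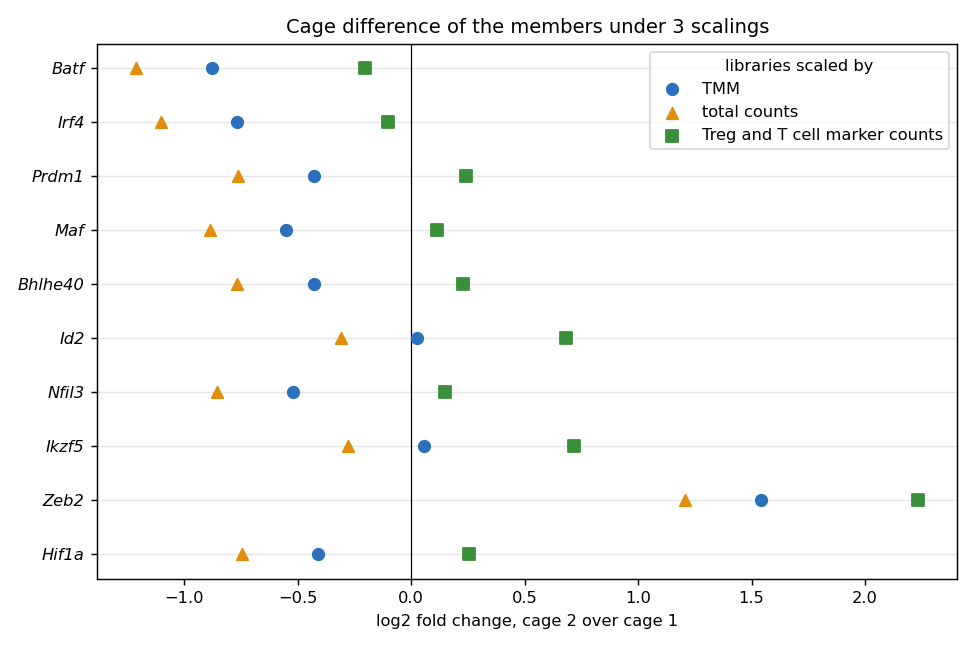
Log2 fold change of cage 2 over cage 1 for each gene with libraries scaled by TMM (circles), by total counts (triangles) and by the counts of the T cell and Treg markers (squares). Batf, Irf4 and Zeb2 keep their side of 0 under the 3 scalings, at -0.20, -0.10 and 2.23 with the markers.

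Likeness was measured as the mean absolute difference in centred log2 CPM over the 6 libraries, searched among 8184 other genes with a mean of at least 10 CPM. The genes closest to Hif1a were Yaf2, Ppp2r2a and Parg (0.016 to 0.024), and to Maf Dgkz, Tapbp and Cap1 (0.021 to 0.031). Those closest to Prdm1 were Pnpla8, Kdm2a and Birc3 (0.034 to 0.043), and to Bhlhe40 Xpr1, Jak2 and Nr4a2 (0.037 to 0.038). Id2 was nearest to Themis, Ago3 and Isg20l2 (0.049 to 0.066), Ikzf5 to Cstf3, Rps6ka3 and Cfap43 (0.038 to 0.043) and Nfil3 to Rpl13a, Smc4 and E2f4 (0.043 to 0.051). Batf was nearest to Tiam1, Gprin3 and Tgfbr1 (0.089 to 0.10), Irf4 to Zfp949, Mcub and Riok1 (0.10 to 0.14) and Zeb2 to genes that include Rhoc and Gyg (0.13 and 0.15). Among the members themselves Bhlhe40 and Hif1a were the closest pair (0.066), and Batf and Zeb2 the farthest apart (1.05).

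Partners and target genes of the members were read in the same comparisons, at the level of RNA only. Of 13 AP-1 and IRF partners 11 could be tested, and 0 passed by genotype, with a median log2 fold change of 0.11 for the libraries labelled Ythdf2 cKO over control. Fosb was at 170.1 ± 60.6 CPM in libraries labelled Ythdf2 cKO and 121 ± 26.2 CPM in the controls (SD, n = 3 each; 0.49, standard error 0.28), and Jund at 447 ± 76.4 CPM in libraries labelled Ythdf2 cKO and 524 ± 102 CPM in controls (-0.23, standard error 0.21). Bach2, a repressor that opposes the effector programme, was at 8.62 ± 0.929 CPM in libraries labelled Ythdf2 cKO and 14.1 ± 12.4 CPM in controls (-0.71, standard error 0.60). By cage 3 partners fell and 0 rose, where 3.68% of all genes were lower and 7.83% higher. Junb, an AP-1 subunit that BATF binds, was at 1079 ± 152 CPM in cage 2 and 1740 ± 151 CPM in cage 1 (log2 fold change -0.78, edgeR adjusted p = 0.0041). Jun, of the same family, had a log2 fold change of 0.17 (edgeR adjusted p = 0.69). Jund was at 405 ± 12.4 CPM in cage 2 and 566 ± 31.6 CPM in cage 1 (-0.46, edgeR adjusted p = 0.034), and Fosb had a log2 fold change of -0.65 (edgeR adjusted p = 0.026). The median by cage was -0.52, against 0.013 for all genes. It was 0.13 when scaled to the T cell and Treg markers, against 0.68 for all genes.

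Genes of effector and tumour Treg cells were listed without the factors themselves. Of 31 listed, 29 could be tested. By genotype 0 passed, with 14 above 0 and 15 below and a median of -0.0069. The smallest p values were those of Il12rb2 at 20.2 ± 5.82 CPM in libraries labelled Ythdf2 cKO and 11.98 ± 4.52 CPM in the controls, Il1r2 at 43.7 ± 18.7 CPM in libraries labelled Ythdf2 cKO and 76.3 ± 41.5 CPM in controls, and Gzmb, which encodes granzyme B, at 237 ± 58.3 CPM in libraries labelled Ythdf2 cKO and 342 ± 188 CPM in controls (SD, n = 3 each; edgeR adjusted p = 1.00). By cage 12 fell and 0 rose, where 3.68% of all genes were lower and 7.83% higher. Il1rl1, the interleukin-33 receptor, was at 219 ± 16.8 CPM in cage 2 and 461 ± 32.4 CPM in cage 1 (log2 fold change -1.10, edgeR adjusted p = 0.0011). Ccr4, a chemokine receptor, was at 55.8 ± 7.83 CPM in cage 2 and 119.6 ± 9.61 CPM in cage 1 (-1.18, edgeR adjusted p = 0.0015), and Tnfrsf9, which encodes the costimulator 4-1BB, at 458 ± 58.6 CPM in cage 2 and 733 ± 121 CPM in cage 1 (-0.79, edgeR adjusted p = 0.0037). The median of the list by cage was -0.68 and it was 0.0042 when scaled to the T cell and Treg markers, although Il2ra and Ctla4 belong to both lists. The median of all genes was 0.013 and moved to 0.68 under that scaling. Of 12 resting T cell genes 0 passed by genotype (median -0.010). Il7r, the interleukin-7 receptor, was at 404 ± 61.5 CPM in the libraries labelled Ythdf2 cKO, against 326 ± 9.29 CPM in the controls (0.31), and Tcf7 at 46.2 ± 15.4 CPM in libraries labelled Ythdf2 cKO and 87.7 ± 72.6 CPM in controls (-0.93). By cage 2 of the 12 fell, S1pr1 (-0.67, edgeR adjusted p = 0.012) and Lef1 (-0.79, edgeR adjusted p = 0.021). Their list had a median of -0.44, which was 0.24 when scaled to the markers, against 0.68 for all genes.

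HIF-1 target genes had a median above 0 by cage, where Hif1a was at -0.41 with TMM and at 0.25 scaled to the T cell and Treg markers. Of 26 listed and tested, 12 rose and 0 fell in cage 2, where 7.83% of all genes were higher and 3.68% lower. The median of the targets was 0.54 on the log2 scale, against 0.013 for all genes. It was 0.20 with total counts and 1.22 scaled to the T cell and Treg markers. The medians of all genes were -0.32 and 0.68 under these scalings. Hk2, the enzyme of the first step of glycolysis, was at 205 ± 67.8 CPM in cage 2 and 71.3 ± 39.1 CPM in cage 1 (2.08, edgeR adjusted p = 9.2e-04). Vegfa, the vessel growth factor, was at 111 ± 23.5 CPM in cage 2 and 17.95 ± 10.5 CPM in cage 1 (3.12, edgeR adjusted p = 9.2e-04), and Pgk1, a glycolytic enzyme, at 406 ± 59.7 CPM in cage 2 and 231 ± 45.2 CPM in cage 1 (0.97, edgeR adjusted p = 0.0015). The melanoma markers given above moved the same way, and their part in these differences was not tested. By genotype 0 targets passed and 20 of 26 were below 0, where 6681 of all 13172 genes tested were. The median of the targets was -0.13 and ran from -0.42 to 0.20 over the alternatives. Ndrg1 was at 56.9 ± 10.1 CPM in libraries labelled Ythdf2 cKO and 80.3 ± 21.3 CPM in the controls, Ero1l at 140 ± 62.9 CPM in libraries labelled Ythdf2 cKO and 209.8 ± 50.5 CPM in controls and Pfkfb4 at 1.89 ± 0.486 CPM in libraries labelled Ythdf2 cKO and 4.04 ± 1.77 CPM in controls (SD, n = 3 each; edgeR adjusted p = 1.00). Of 7 HIF control genes (Arnt, Vhl, Egln1, Egln2, Egln3, Hif1an and the other alpha subunit gene Epas1), 0 passed by genotype or by cage. Egln3 is also on the list of targets. Arnt, the constant partner of HIF1A, was at 83.8 ± 4.34 CPM in libraries labelled Ythdf2 cKO and 68.7 ± 5.09 CPM in controls (log2 fold change 0.29, standard error 0.14, unadjusted p = 0.078), and Vhl, which marks HIF1A for degradation, at 17.1 ± 1.18 CPM in libraries labelled Ythdf2 cKO and 13.8 ± 1.07 CPM in controls (0.31, standard error 0.25).

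**Figure D5:**
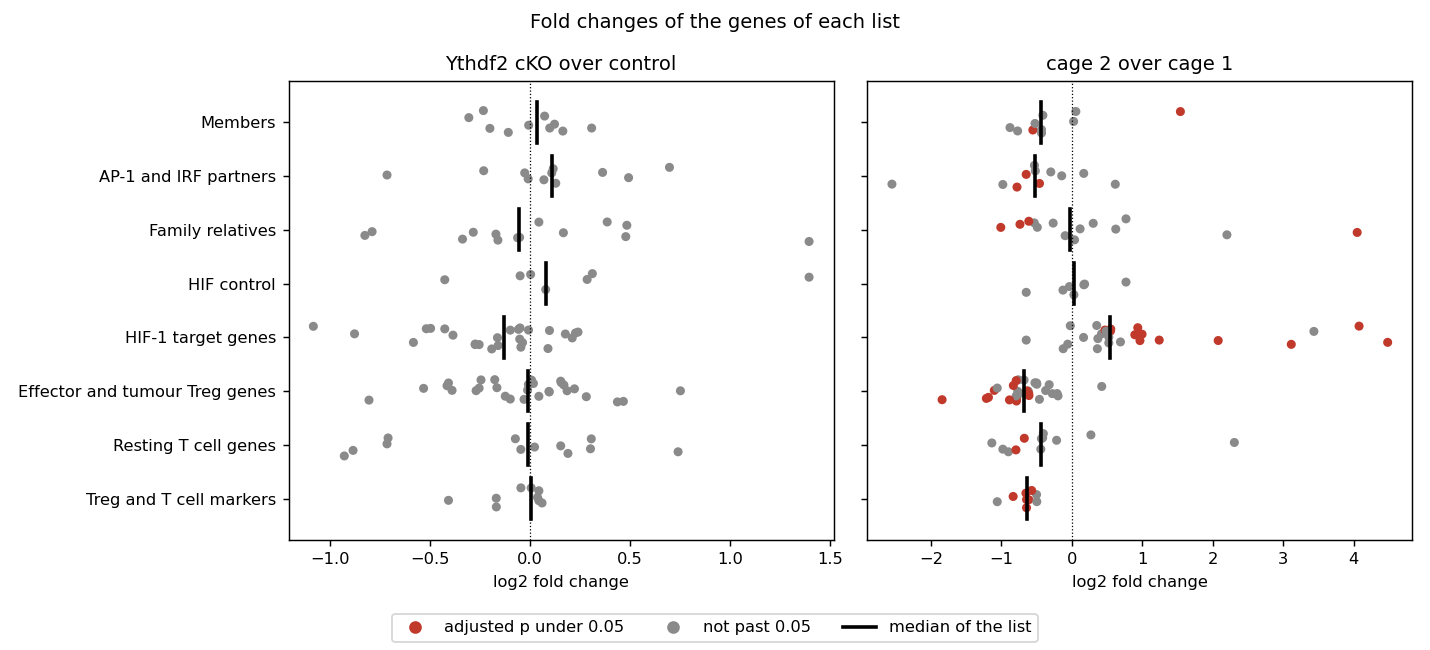
Log2 fold change of each tested gene (points, red where the edgeR adjusted p is under 0.05) and the median of its list (black bar), for Ythdf2 cKO over control (left) and cage 2 over cage 1 (right). No point on the left is red, and on the right 12 HIF-1 target genes lie above 0 and 12 effector Treg genes below 0 in red.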

How the data were processed

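For every library the authors deposited unnormalized counts, 1 value per gene. Per the submitters' processing notes, the tools were Trimmomatic 0.39 for trimming, HISAT2 2.1.0 for alignment (mm10), HTSeq for counting, and DESeq2. Libraries were made with a stranded total RNA kit, per the labels' protocols; neither the annotation release nor the strand setting is stated in the sources used here. Of 54446 identifiers, 54409 matched GENCODE M21, which gave symbols and exon lengths (the union of all exons). Rows naming no gene stayed out: reads in no gene were 24.6% to 35.8% of records, ambiguous reads 1.43% to 2.21% and reads at several places 9.22% to 12.9%. Every pair of libraries differed beyond sampling noise, with a chi-square of at least 17.4 per degree of freedom.

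Genes were filtered with filterByExpr (minimum count 10, minimum total 15), scaled by TMM and tested with the quasi-likelihood test of edgeR 4.0.16 in R 4.3.3 on all 6 libraries, with genotype as the only term, with genotype and cage, or with their interaction. The Benjamini-Hochberg adjustment ran over 13172 genes, with a threshold of 0.05. All 10 members passed the filter. Standard errors and 95% intervals come from the same fits. Within-cage values are log2 ratios of mean CPM, and centred log2 CPM has a prior count of 2. The test was checked on simulated counts.

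Alternatives were DESeq2 1.42.0, limma-voom (limma 3.58.1), other scalings and filters, genes left out, a replicate block, other terms, each library left out and a threshold of 0.1. Scaling to the summed counts of the 9 T cell and Treg markers was added after the data were seen. The members and lists were chosen with earlier results of these data known. Named genes are all members, up to 3 per list with the smallest p in each comparison, and for likeness the 3 closest genes to each member, of which 1 is not reported here. Foxp3, Cd4 and the markers are named as checks of the sort, and Jun is named beside Junb and Jund. Reads from amplified libraries without molecular tags are not independent molecules.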

Additional observations from a re-analysis of the deposited data

Results flagged for a closer look

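Tyr, the melanin enzyme among the melanoma markers, had an interaction of genotype and cage past the threshold (log2 9.60, edgeR adjusted p = 0.018), in a fit where 1 library labelled Ythdf2 cKO stands for cage 1 and 1 control for cage 2. In cage 1 Tyr had 0 CPM in Ythdf2 cKO replicate 1 against 17.3 and 16.7 CPM in control replicates 1 and 2. In cage 2 it had 121 and 136 CPM in Ythdf2 cKO replicates 2 and 3 against 221 CPM in control replicate 3. Ythdf2 cKO replicate 1 was the lowest library in all 14 melanoma markers, which summed to 63.2 CPM there. Since 1 library held no read of Tyr, the prior count sets the size of the fitted difference.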

How the results depend on the processing

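By genotype the count of members past the threshold was 0 under every alternative run, and the count of genes was 0 except without the filter on low counts (33). By cage the count of genes (1516) was 2347 without the filter, 2349 with DESeq2, 849 without the genotype term, 2293 at a threshold of 0.1 and 4733 scaled to the T cell and Treg markers, and 660 to 1234 with each library left out. The count of members (2) was 5 with total counts, 8 without the filter, 6 with DESeq2, 6 at a threshold of 0.1, 3 with limma-voom and 0 to 4 with each library left out. With total counts 46.9% of the genes called by cage were higher, against 68% with TMM. The count of genes with an interaction (6) was 3 with RLE factors, 30 with total counts, 450 without the filter and 3 at a mean CPM of at least 5. The replicate numbers run across cages and do not pair the libraries (correlation of same-numbered deviations from -0.24 to 0.55). With the replicate number as a block 0 members and 0 genes passed by genotype, and by cage 46 genes and 0 members, where Zeb2 was at 0.60 (edgeR adjusted p = 0.93) and Maf at -0.41 (edgeR adjusted p = 0.96), and Irf4 turned to 0.16 and Nfil3 to 0.068. In that fit the cage term rests on Ythdf2 cKO replicate 2 and control replicate 2, the only same-numbered libraries in different cages. It therefore cannot decide whether the cage differences hold. The cause of the changes of sign here and below was not tested.

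Genotype signs turned for Zeb2 with upper quartile factors (0.014), total counts (0.25) and no filter (0.0017), and with cage as a term for Batf (0.13) and Maf (0.089). With each library left out the range was -0.50 to 0.27 for Batf, -0.63 to 0.12 for Irf4, -0.29 to 3.4e-04 for Maf, -0.042 to 0.33 for Bhlhe40, -0.19 to 0.19 for Id2, -0.65 to 0.64 for Zeb2 and -0.034 to 0.26 for Hif1a. By cage Id2 turned with total counts (-0.31) and no filter (-0.0025), Ikzf5 with total counts (-0.28), and Prdm1 (0.24), Maf (0.11), Bhlhe40 (0.23), Nfil3 (0.15) and Hif1a (0.25) when scaled to the markers, a scaling under which the median of all genes was 0.68 in place of 0.013. With each library left out Id2 ran from -0.35 to 0.41 and Ikzf5 from -0.15 to 0.28. Depth limits Ikzf5 most, with 137 to 339 reads per library.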

Other observations

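Relatives of the members did not pass by genotype, and some differed by cage. Bhlhe41, the paralog of Bhlhe40, rose in cage 2: it was at 65.5 ± 10.6 CPM in cage 2 and 4.75 ± 2.15 CPM in cage 1 (SD, n = 3 each; log2 fold change 4.05, edgeR adjusted p = 1.8e-04), while Bhlhe40 had a log2 fold change of -0.43. Between the same cages the median over the 14 melanoma markers was 4.32 on the log2 scale and that over the 13 macrophage and monocyte markers tested was 3.54. In Ythdf2 cKO replicate 2 of cage 2 the macrophage sum was mostly Apoe, and Lyz2 was at 6.56 CPM, against 20.2 CPM in control replicate 2 of cage 1. Bhlhe41 was at 56.0 and Tcf4 at 24.7 CPM in Ythdf2 cKO replicate 2. The part of both marker lists in the Bhlhe41, Tcf4 and Tcf12 differences was not tested. Of the Ikaros family, Ikzf4 fell to 70.9 ± 24.1 CPM in cage 2 against 121 ± 18.7 CPM in cage 1 (-1.01, edgeR adjusted p = 0.011), and Ikzf3 to 231 ± 44.4 CPM in cage 2 against 359 ± 17.4 CPM in cage 1 (-0.74, edgeR adjusted p = 0.016), where the T cell and Treg markers had a median of -0.64, whose part was likewise not tested. Epas1, which encodes the HIF relative HIF2A, had the smallest p of the relatives by genotype, at 22.8, 28.0 and 106.9 CPM in Ythdf2 cKO replicates 1, 2 and 3, against 19.8, 20.6 and 19.6 CPM in control replicates 1, 2 and 3 (1.395, standard error 0.57, edgeR adjusted p = 1.00), and Ythdf2 cKO replicate 3 was the one high library. The endothelial genes Kdr and Cdh5 were at 66.7 and 39.97 CPM in that library and at no more than 0.947 and 0.707 CPM in the other 5, and Col3a1 at 74.5 CPM there and no more than 11.04 CPM in the others. The part of these markers in the Epas1 values was not tested. Maff was at 28.3 ± 1.19 CPM in libraries labelled Ythdf2 cKO and 20.2 ± 5.36 CPM in the controls, and Hlf at 8.23 ± 3.47 CPM in libraries labelled Ythdf2 cKO and 14.3 ± 3.91 CPM in controls (edgeR adjusted p = 1.00). Of the E proteins that Id2 binds, Tcf4 rose in cage 2 to 30.5 ± 10.1 CPM against 7.11 ± 0.914 CPM in cage 1 (1.99, edgeR adjusted p = 0.0052) and Tcf12 to 154 ± 24.7 CPM in cage 2 against 109 ± 4.69 CPM in cage 1 (0.56, edgeR adjusted p = 0.027), while Tcf3 was at 79.4 ± 7.63 CPM in cage 2 and 79.1 ± 16.8 CPM in cage 1.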
